A study of Mus musculus with 7 samples.

Results

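miR-10a and miR-10b were followed through Ago2-bound small RNA from mouse plasma, in which 7 libraries were sequenced, 1 for each condition. Their hairpins gave 4 of the 640 rows of the count table, miR-10b-5p, miR-10a-5p, miR-10a-3p and miR-10b-3p. The pair was chosen on the level of miR-10b-5p, the second largest row in most libraries, so its abundance is given below as a description without a test. The comparison of status epilepticus (SE) with control was not used in that choice.

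SE was triggered in adult male c57 mice (C57BL/6JOlaHsd in the methods) by kainic acid injected into the amygdala, and control mice received PBS in the same way. The methods state that a benzodiazepine was given afterwards to limit mortality in SE. Plasma was taken at 4, 8 and 24 h in both arms and at 2 weeks in SE, and each library was made from the pooled plasma of 10 mice. No control of 2 weeks was analysed here, so that SE library was set against control 24 h, which the comparisons at 24 h and 2 weeks therefore share. Each condition has a single library, so differences between them lack any replicate error, and a pool hides the spread between its mice.

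miR-10 is an ancient miRNA whose genes lie inside the Hox clusters, the arrays of transcription factor genes that set position along the body axis, and it is transcribed along with neighbouring Hox genes. Its known targets include Hox transcripts themselves, among them Hoxd10 for miR-10b. In the adult it is known from kidney, gut, smooth muscle and endothelium, with low levels in the forebrain. Loaded in Ago2, a mature miRNA is guided to its targets mainly by the seed, bases 2 to 8 of its 5′ end.

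In GRCm38 the hairpin of Mir10b lies on chromosome 2 (74726070 to 74726137, plus strand), in introns of transcripts of Hoxd3 and Hoxd4. The hairpin of Mir10a lies on chromosome 11 (96317165 to 96317274, plus strand), in no annotated transcript of another gene in GENCODE, 993 bp before Hoxb4 and 11044 bp after Hoxb5. The hairpins are shown because each can give a 5p and a 3p mature strand, which are in capitals (RefSeq, GRCm38.p6).
Mir10a: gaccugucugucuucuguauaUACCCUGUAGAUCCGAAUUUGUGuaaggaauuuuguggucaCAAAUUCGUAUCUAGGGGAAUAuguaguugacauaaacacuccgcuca
Mir10b: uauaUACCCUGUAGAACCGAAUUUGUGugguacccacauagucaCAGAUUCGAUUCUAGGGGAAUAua

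The mature strands are shown 5′ to 3′ with the seed in capitals, because the counts below depend on telling them apart.
miR-10a-5p: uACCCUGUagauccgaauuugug
miR-10b-5p: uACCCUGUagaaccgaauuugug
miR-10a-3p: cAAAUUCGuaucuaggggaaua
miR-10b-3p: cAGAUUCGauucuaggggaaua
miR-100-5p: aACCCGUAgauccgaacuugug
The 5p strands are both 23 bases long and share the seed, and the single difference between them is U12A, counted from the 5′ end of miR-10a-5p. The 3p strands differ by A3G, U9A and A10U, the first of which lies in the seed. A RefSeq sequence was matched to 551 of the 640 rows, and none of the others has the seed of the 5p strands or comes within 2 mismatches of them in an ungapped overlap of at least 18 bases. The closest is miR-100-5p, a relative with a shifted seed, at 3 mismatches from miR-10a-5p. The authors' alignment allowed 2 mismatches, more than separate miR-10a-5p from miR-10b-5p, and how a read matching both was assigned is not given in the sources used here.

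Total counts were between 2043220 and 5405357 per library. Most of them, from 62.5% to 76.1%, were miR-486b-5p, a miRNA of red blood cells, so the share left for every other miRNA depends on it. Levels are therefore given as CPM, counts scaled to 1e+06 per library, after library sizes were adjusted with the TMM factors of edgeR (trimmed mean of M-values), which were between 0.754 and 1.22, and shares are given with and without miR-486b-5p. The control 4 h library stood apart, with 232 rows counted against 314 to 399 in the others. Its low counts gathered around 102, against 33.1 to 60.2 in the others. That value was used as an estimate of how many reads came from 1 captured molecule. Where a statement on the members changes without this library, the values without it are given too.

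miR-10b-5p was the second most counted miRNA in 6 of the 7 libraries and the third in control 24 h, where let-7f-5p, a ubiquitous member of the let-7 family, was ahead of it. At 4 h it had 88453 counts in control and 383693 in SE, and at 8 h it had 151313 in control and 229034 in SE. At 24 h the counts were 98538 in control and 139262 in SE, and SE 2 weeks had 122048. SE had more counts at each time, before any allowance for depth. Its share of a library was lowest in control 24 h, at 2.89% (95% Wilson interval 2.87 to 2.91), and highest in SE 8 h, at 7.23% (7.20 to 7.26). Among the counts other than miR-486b-5p, it made up 8.75% in control 24 h and 21.9% in SE 4 h. These intervals cover counting error of reads only. With counts divided by the reads per molecule of each library, the interval in control 24 h was 2.76 to 3.02 and that in SE 8 h was 7.03 to 7.44.

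On the TMM-adjusted scale the controls of miR-10b-5p were at 50762 CPM (4 h), 35090 CPM (8 h) and 24971 CPM (24 h). The SE libraries were at 90114 CPM (4 h), 62887 CPM (8 h), 49660 CPM (24 h) and 39534 CPM (2 weeks). Every SE library was above the control it was compared with, but the ranges of the arms overlapped, since SE 24 h and SE 2 weeks lay below control 4 h. Without control 4 h, all 4 SE libraries were above the remaining controls on this scale, as they were for 12 of 102 miRNAs (11.8%), and with library size only SE 24 h, at 37453 CPM, lay within them. In both arms the TMM-adjusted level was highest at 4 h and lower at each later time, whereas with library size only SE 8 h was the highest, at 72320 CPM. In plasma, release from more cells and more RNA released per cell cannot be told apart.

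miR-10a-5p ranked between 7 and 14 in the libraries. At 4 h it had 14273 counts in control and 87725 in SE, and at 8 h it had 34395 in control and 50516 in SE. At 24 h the counts were 34740 in control and 29201 in SE, and SE 2 weeks had 33779. At 24 h, therefore, the raw count was lower in SE than in control. Its share was lowest in control 4 h, at 0.699% (0.687 to 0.710), and highest in SE 4 h, at 1.62% (1.61 to 1.63). Without control 4 h the lowest share was that of SE 24 h, at 0.785% (0.776 to 0.794). The TMM-adjusted levels of the 3 controls were 8191, 7976 and 8804 CPM, a range of 1.10-fold, against 2.03-fold for miR-10b-5p in the same libraries. Without control 4 h the range of miR-10a-5p was still 1.10-fold, and miR-10b-5p in control 24 h was at 0.712 of control 8 h. In SE the levels of miR-10a-5p were 20603 CPM (4 h), 13870 CPM (8 h), 10413 CPM (24 h) and 10942 CPM (2 weeks).

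All 4 SE libraries were thus above all 3 controls for miR-10a-5p. Of the 102 miRNAs that reached 50 CPM in every library, 6 (5.88%) showed such a separation with SE higher, miR-10a-5p included. It also held with DESeq2's size factors and with totals that leave out miR-486b-5p. With library size only the ranges overlapped, with SE 24 h at 7853 CPM and the controls between 6986 and 10180 CPM.

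**Figure D1:**
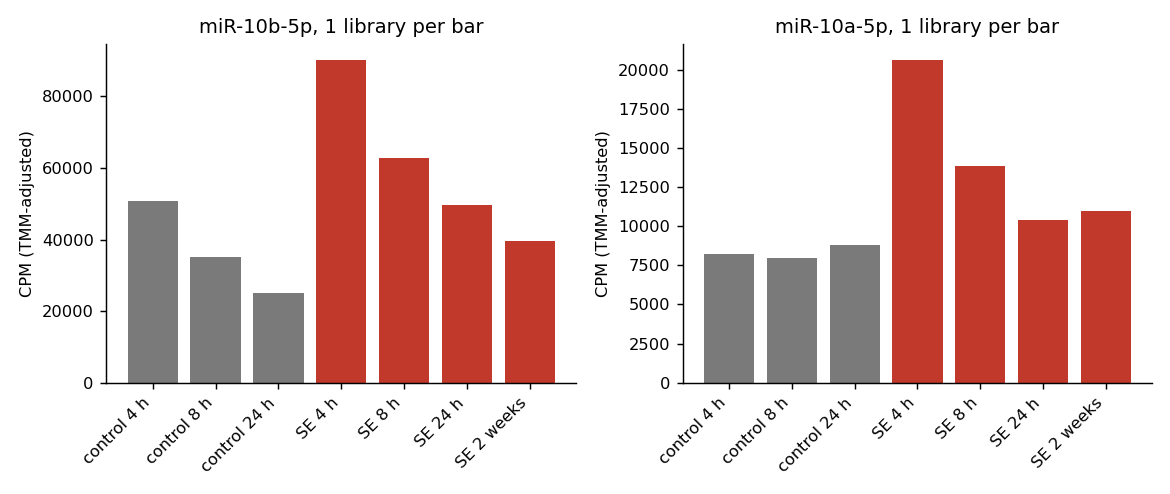
Level of miR-10b-5p (left) and miR-10a-5p (right) in CPM on TMM-adjusted library sizes, with 1 bar per library (grey, control; red, SE) and no error bars because each condition has 1 library. The controls of miR-10a-5p lie between 7976 and 8804 CPM and all SE bars are above them, whereas those of miR-10b-5p run from 50762 CPM at 4 h to 24971 CPM at 24 h.

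The counts of a hairpin came almost wholly from its 5p strand. miR-10a-3p, usually the passenger strand, had 50 counts (control) and 39 counts (SE) at 8 h, 58 counts in control 24 h, and none in the other 4 libraries. miR-10b-3p had 14 counts in SE 24 h and none elsewhere. A count of 0 in control 4 h allows a share of up to 0.000147% if reads are counted as independent, and of up to 0.0150% on estimated molecules. Each 3p count was close to or below the reads per molecule of its library, so neither strand can be compared between conditions at this depth. In the 4 libraries with a 3p count, the 5p strands summed had between 2298 and 12033 times the counts of the 3p strands.

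The ratio of miR-10b-5p to miR-10a-5p does not depend on how libraries are scaled. The controls had ratios of 6.20 (4 h), 4.40 (8 h) and 2.84 (24 h). The SE libraries had ratios of 4.37 (4 h), 4.53 (8 h), 4.77 (24 h) and 3.61 (2 weeks). The controls covered a wider range than SE and enclosed every SE value, but that rested on control 4 h. Without it they ran from 2.84 to 4.40, and SE 8 h and SE 24 h lay above them. With exact binomial intervals on estimated molecules, control 4 h (5.16 to 7.44), control 8 h (4.02 to 4.83) and control 24 h (2.59 to 3.11) did not overlap each other, and the intervals of SE 4 h, 8 h and 24 h did (4.18 to 4.58, 4.23 to 4.86 and 4.38 to 5.20). SE 2 weeks, at 3.37 to 3.88, overlapped none of the other SE intervals. These intervals hold counting error only. On the log2 scale the ratio in SE minus that in its control was -0.50 (4 h), 0.04 (8 h), 0.75 (24 h) and 0.35 (2 weeks), so its direction was not the same at all times. An exact two-sided permutation test of the log2 ratio, 3 SE against 3 control libraries of 4, 8 and 24 h, gave p = 0.8, in a design whose smallest p is 0.1.

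**Figure D2:**
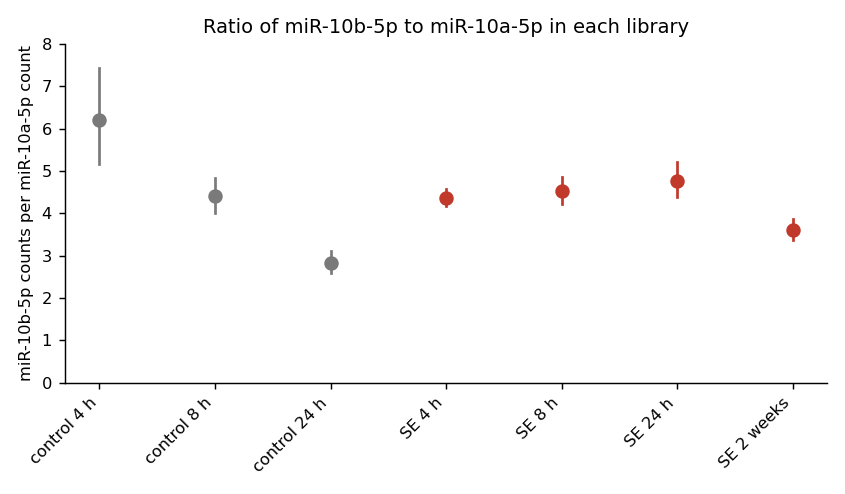
Counts of miR-10b-5p per count of miR-10a-5p in each library (grey, control; red, SE). Points are the ratio of raw counts and vertical lines the exact 95% binomial interval on estimated molecules, counting error only. The ratio falls from 6.20 to 2.84 over the 3 controls and stays between 4.37 and 4.77 in SE at 4, 8 and 24 h, with SE 2 weeks at 3.61.

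The comparison of SE with control at each time asked which circulating Ago2-bound miRNAs differ after seizures. miR-10b-5p was 1.78-fold higher in SE at 4 h (log2 fold change 0.83) and 1.79-fold at 8 h (0.84). It was 1.99-fold higher at 24 h (0.99) and 1.58-fold at 2 weeks (0.66). miR-10a-5p was higher by 2.52-fold at 4 h (log2 fold change 1.33) and 1.74-fold at 8 h (0.80). Its differences at 24 h (1.18-fold, 0.24) and 2 weeks (1.24-fold, 0.31) were below the threshold of 1.5-fold. At 4 h the larger fold was that of miR-10a-5p against control 4 h, but against the sum of the 3 controls miR-10b-5p was at 1.41 and miR-10a-5p at 1.30 (log2). At 8 h the folds were alike, and at 24 h and 2 weeks the larger was that of miR-10b-5p.

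A miRNA was called higher at an unadjusted p under 0.05 and at least 1.5-fold in the exact test of edgeR. That test cannot estimate a spread from 1 library a side, so a biological coefficient of variation (BCV) of 0.1 was assumed. It compares a pair of libraries rather than conditions, and no p is printed. miR-10b-5p was called higher at all 4 times and miR-10a-5p at 4 h and 8 h. Such calls were frequent, with 32.3% of the 189 miRNAs tested at 4 h and 35.1% of the 154 tested at 8 h called higher in SE. At 24 h the share was 24.8% of 141, and at 2 weeks it was 18.6% of 145. By log2 fold change from the top, in order of time, miR-10b-5p was number 49, 42, 20 and 21, and miR-10a-5p was number 29, 46, 53 and 39. At a BCV of 0.4 neither was called at any time.

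The controls give a yardstick without SE. miR-10b-5p was 2.03-fold higher in control 4 h than in control 24 h (log2 fold change -1.02 from 4 h to 24 h), larger than its TMM-adjusted fold between SE and control at any of the 4 times. This rested on the scaling and on control 4 h. With plain totals control 24 h was at 0.667 of control 4 h, a smaller difference than the SE folds of 1.64 (4 h), 1.69 (8 h) and 1.66 (2 weeks). It was still larger than the SE fold at 24 h, which was 1.30 with plain totals. Without control 4 h the remaining pair, control 24 h at 0.712 of control 8 h, differed by less than any TMM-adjusted SE fold. Of the 3 pairs of controls, miR-10b-5p was called in 1, control 24 h against control 4 h. In the other pairs its log2 fold changes were -0.53 and -0.49. miR-10a-5p was called in none of the 3 pairs, with log2 fold changes of -0.04, 0.10 and 0.14 on the TMM-adjusted scale. That steadiness depended on the scaling and on control 4 h. With plain totals control 24 h was 1.46-fold above control 4 h but 1.04-fold above control 8 h. Set against the median of the miRNAs tested, miR-10a-5p differed by up to 0.41 (log2) between controls, more than by 0.21 at 24 h and 0.30 at 2 weeks between SE and control. Without control 4 h the remaining pair, control 24 h against control 8 h, differed by -0.02, less than either. For all miRNAs, the share called in either direction was 59.3% of 177 for control 8 h against control 4 h. It was 69.6% of 181 for control 24 h against control 4 h, and 45.4% of 141 for control 24 h against control 8 h.

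**Figure D3:**
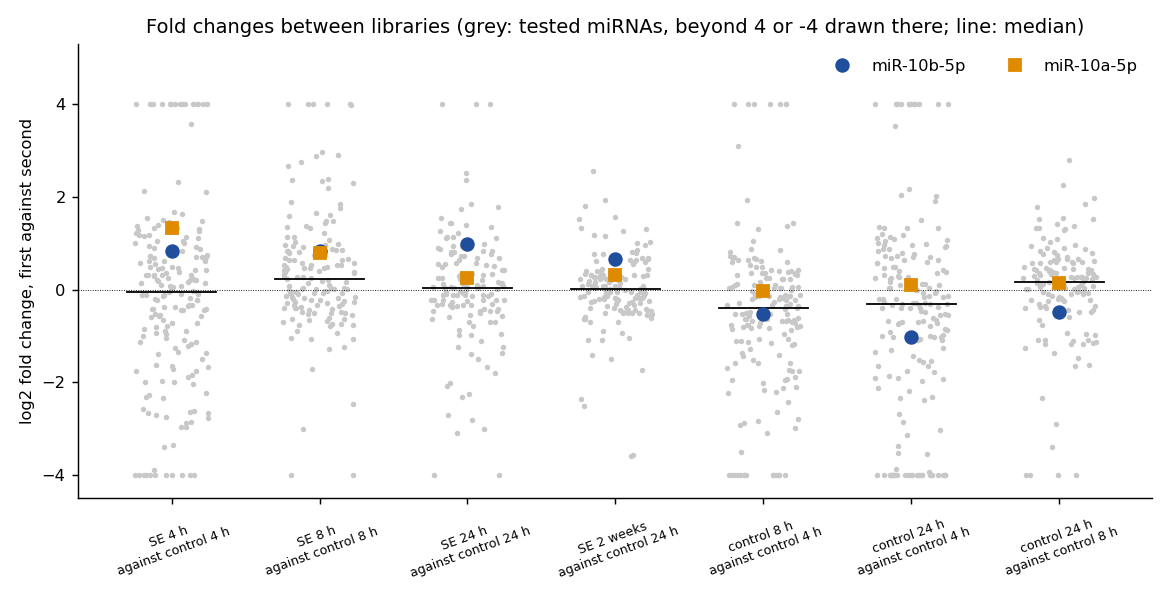
Log2 fold change of miR-10b-5p (blue circles) and miR-10a-5p (orange squares) in 4 comparisons of SE with control and 3 between controls, over the tested miRNAs (grey points, drawn at the limit where beyond 4 in either direction) and their median (line). miR-10b-5p is 0.66 to 0.99 in the SE comparisons and -1.02 to -0.49 between controls. miR-10a-5p stays between -0.04 and 0.14 between controls and reaches 1.33 at 4 h.

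Because scaling shifts all miRNAs of a library together, the members were also set against the median of the miRNAs tested. miR-10b-5p exceeded that median, in log2 and in order of time, by 0.89, 0.61, 0.96 and 0.65. miR-10a-5p exceeded it by 1.39, 0.57, 0.21 and 0.30. Scaling mattered most at 24 h, where the median moved from 0.04 (TMM) to -0.58 (library size only). There the log2 fold change of miR-10b-5p was 0.99 and 0.38, and that of miR-10a-5p was 0.24 and -0.37, so its direction at 24 h depended on the scaling. miR-486b-5p made up 76.1% of SE 24 h and 67.0% of control 24 h, and its part in this was not tested. At 4 h the median was -0.06 with TMM and -0.61 with totals without miR-486b-5p, under which miR-10b-5p was 0.27, below the threshold, and miR-10a-5p was 0.78.

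**Figure D4:**
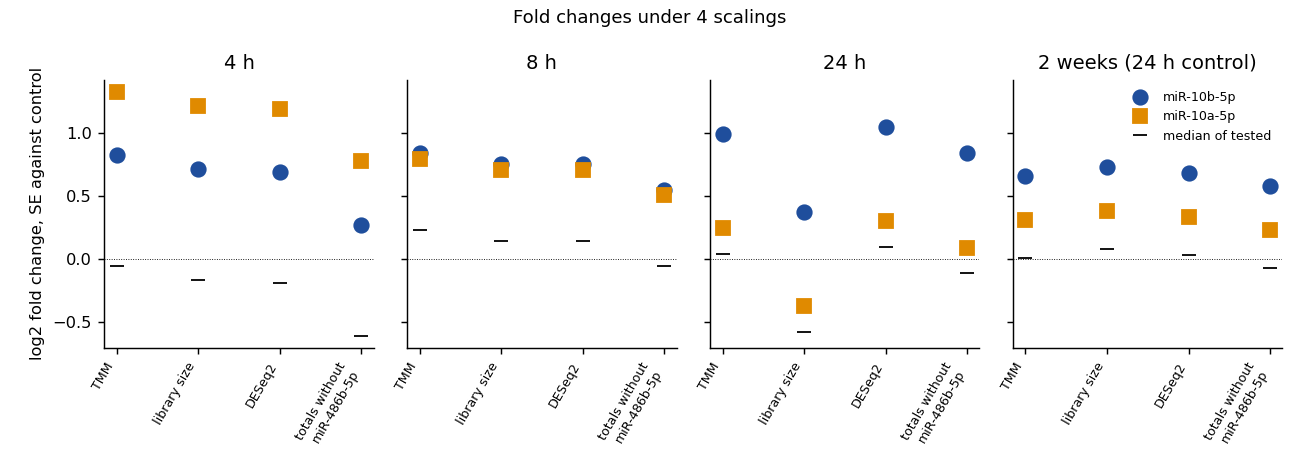
Log2 fold change of miR-10b-5p (blue circles), miR-10a-5p (orange squares) and the median of the miRNAs tested (black dashes) at each time under 4 ways of scaling the libraries. All 3 move together, and the members stay above the median in every panel. miR-10a-5p crosses 0 only at 24 h with library size only, at -0.37.

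A further test set the 3 SE libraries up to 24 h against the 3 controls (edgeR, quasi-likelihood, 137 miRNAs), although the libraries of a side are different times and not replicates. miR-10b-5p was higher in SE by a log2 fold change of 0.87 ± 0.34 (SE of the estimate), with an adjusted p = 0.360. miR-10a-5p was higher by 0.85 ± 0.28, with an adjusted p = 0.334 in the same test. Neither passed the threshold of 0.05, nor did any of the 137 (0%). At an unadjusted p under 0.05 there were 17, both members among them, and DESeq2's Wald test called 4 miRNAs, neither member among them. Each member was higher in SE in 3 of 3 times. Exact two-sided permutation tests of the log2 CPM gave p = 0.2 for miR-10b-5p and p = 0.1, the smallest possible, for miR-10a-5p (both 0.3 after adjustment over 3 measures). Without the 4 h libraries the log2 fold change was 0.91 for miR-10b-5p and 0.53 for miR-10a-5p.

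The other miRNAs of the Hox clusters were barely counted. miR-196b-5p, from the Hoxa cluster on chromosome 6, had at most 96 counts (control 24 h). miR-196a-5p, from the Hoxb and Hoxc clusters, was counted in controls only, with 84 counts at 8 h and 60 at 24 h. Reads per molecule in those libraries were 60.2 and 55.1. miR-615-3p, from the Hoxc cluster on chromosome 15, had 51 counts in SE 4 h only, where reads per molecule were 37.6. Such low counts do not allow the arms to be compared. Summed, miR-196b-5p, miR-196a-5p and miR-615-3p reached at most 39.5 CPM, under the 50 CPM needed for testing. The 5p strands of miR-10a and miR-10b made up between 3.91% and 8.83% of all counts. Because the pair was chosen on the level of miR-10b-5p, this contrast with the other 3 rows from Hox clusters is a description only. Among the relatives by sequence, miR-99b-5p had the highest level, between 176 and 623 CPM, and the sum of miR-99a-5p, miR-99b-5p and miR-100-5p overlapped between SE (271 to 776 CPM) and control (260 to 603 CPM). That sum was mostly miR-99b-5p. In either direction, 2 of the 3 tested were called at 4 h and 1 of 2 at each later time. Of all miRNAs tested, in order of time, 127 of 189, 77 of 154, 63 of 141 and 46 of 145 were called in either direction. miR-100-5p was called higher at 4 h (312 counts against 1 in control 4 h) and 8 h (1.94-fold). At 24 h it was not called (1.09-fold), and at 2 weeks it was called lower (0.534-fold).

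The miRNAs most like each member were those whose log2 ratio of counts to it had the smallest SD over the 7 libraries, among 101 candidates that reached 50 CPM in each. For miR-10b-5p they were miR-676-3p (SD 0.26), miR-27b-3p (0.27), miR-101a-3p (0.30), miR-140-3p (0.33) and miR-143-3p (0.34), and the median candidate had an SD of 0.73. For miR-10a-5p they were miR-101a-3p (0.19), miR-143-3p (0.25), miR-27b-3p (0.26), miR-29a-3p (0.28) and miR-192-5p (0.31), with a median of 0.64. The members themselves stood at 0.35 from each other, number 6 for miR-10b-5p and number 8 for miR-10a-5p. Thus miR-101a-3p, miR-27b-3p and miR-143-3p were near both members, and closer to miR-10a-5p than miR-10b-5p was. Without control 4 h the members stood at 0.28 from each other, number 4 and number 7, the nearest to miR-10b-5p was still miR-676-3p (0.17), and the nearest to miR-10a-5p was miR-27b-3p (0.15). The 7 values share library, depth and composition with every other miRNA, and no test was made.

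**Figure D5:**
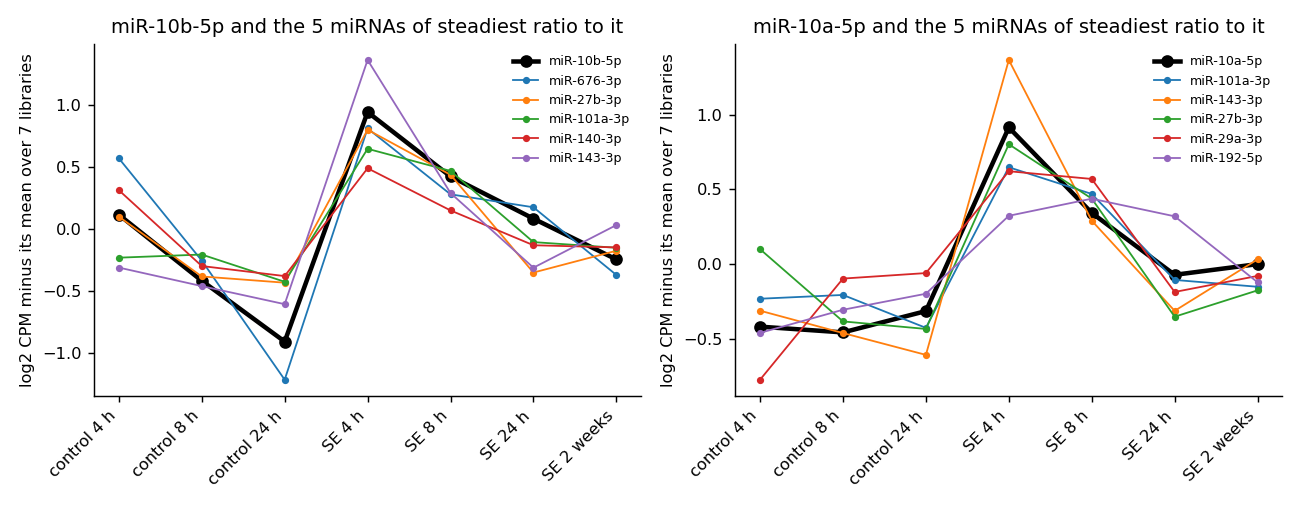
Log2 CPM of miR-10b-5p (left, black) and miR-10a-5p (right, black) minus its mean over the 7 libraries, with the 5 miRNAs of steadiest ratio to it (coloured). Lines only join the points of a miRNA. In both panels the black line is highest in SE 4 h, and miR-101a-3p, miR-27b-3p and miR-143-3p appear in both.

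Markers of cells and tissues that can release miRNA into plasma were set beside the members. miR-192-5p, miR-194-5p and miR-215-5p, of kidney and gut, summed to 24634 to 30785 CPM in SE and 19981 to 23728 CPM in control. On the TMM-adjusted scale miR-192-5p was higher in all SE libraries (15230 to 22428 CPM, control 12050 to 14443 CPM). It was among the 6 of 102 miRNAs (5.88%) with such a separation. miR-215-5p overlapped (7272 to 9576 CPM and 7932 to 9274 CPM). With library size only miR-192-5p overlapped as well, at 15589 to 25792 CPM in SE and 10276 to 16700 CPM in control. The sums then overlapped too, at 22078 to 35402 CPM in SE and 17041 to 27437 CPM in control. Of the 2 tested, 1 was called in either direction at 4 h and at 8 h and none at 24 h and 2 weeks. For all miRNAs tested the calls were, in order of time, 127 of 189, 77 of 154, 63 of 141 and 46 of 145. The part of the kidney and gut miRNAs in the levels of miR-10a-5p and miR-10b-5p was not tested. The 5 platelet and leukocyte miRNAs, all counted, overlapped between SE (5949 to 10338 CPM) and control (4806 to 10501 CPM). So did the 4 brain miRNAs (1305 to 1953 CPM and 1142 to 2273 CPM), of which miR-124-3p was counted in SE 24 h only, with 49 counts, and miR-132-3p in no control. Of the red blood cell miRNAs other than miR-486b-5p, miR-451a had at most 81 counts and miR-486a-5p at most 1, and all 4 summed to 345 to 671 CPM in SE and 2.30 to 620 CPM in control, or 361 to 620 CPM without control 4 h. miR-122-5p, of liver, had 59 counts in SE 4 h, 55 in SE 2 weeks, 1 in SE 24 h and none elsewhere. miR-133a-3p, the 1 of 3 listed muscle miRNAs analysed here, was between 116 and 1439 CPM in SE and between 75.5 and 888 CPM in control. Each SE library was above the control it was compared with. miR-133a-3p was called at 8 h, 24 h and 2 weeks and not at 4 h, to be read beside the calls over all miRNAs given above.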

How the data were processed

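The authors trimmed adapters, size-selected reads and aligned them by BLASTn to miRBase in Chimera (version not given in the sources used here), and deposited raw read counts of 640 mature miRNAs in 7 libraries. No column was left unused. Totals were between 2043220 and 5405357 counts. Members, lists and tests were chosen with earlier results of these data known. Named miRNAs were all rows of both hairpins, other Hox cluster miRNAs, miR-99a, miR-99b and miR-100, the most counted rows, marker lists, and the 5 most like each member.

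Pairs of libraries were compared with edgeR 4.0.16 (R 4.3.3, limma 3.58.1), with TMM factors over all 7 libraries, BCV 0.1 (after the study's methods) and prior count 0.125, over miRNAs reaching 50 CPM in 1 or both. The quasi-likelihood test needed 50 CPM in at least 3 of 6 libraries, and p-values were adjusted by Benjamini-Hochberg over all miRNAs tested. Reads per molecule were the mode of a kernel density of log counts from 6 to 300. Shares and ratios were computed in Python 3.11.15 (numpy 2.4.6, pandas 2.3.3, scipy 1.17.1) and drawn with matplotlib 3.10.9. Data simulated for 4 h were drawn at the BCV of 0.1 that the exact test assumes. In them it recovered 91 of 91 miRNAs changed 3-fold, with 0 false calls among 79. The quasi-likelihood test for 3 against 3 libraries recovered 63 of 63 changed 4-fold, with 3 false calls among 91. Its data were drawn at a BCV below the 0.587 fitted in the real libraries. Both runs check only that the tests work as set, and their false calls do not carry over to the real libraries. Alternatives were other scalings (including DESeq2 1.42.0), BCV 0.4, other controls, other filters, time as a block and leaving out each time. Intervals and limits on molecules, values without control 4 h alone and the kidney and gut list by library size only were chosen after seeing the data.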

Additional observations from a re-analysis of the deposited data

How the results depend on the processing

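Of the log2 fold changes of miR-10b-5p and miR-10a-5p, those at 4 h and 8 h kept their direction under all alternatives run. miR-10a-5p at 24 h turned to -0.37 with library size only, and miR-10b-5p at 2 weeks to -0.36 against control 4 h. Calls were lost for miR-10b-5p with totals without miR-486b-5p at 4 h (0.27), 8 h (0.55) and 2 weeks (0.58), with library size only at 24 h (0.38), with the sum of the 3 control libraries at 24 h (0.55) and 2 weeks (0.22), and against control 8 h at 2 weeks (0.17). miR-10a-5p lost its call at 8 h with totals without miR-486b-5p (0.51). BCV 0.4 left the values as they were (0.83, 0.84, 0.99 and 0.66 for miR-10b-5p, 1.33 and 0.80 for miR-10a-5p) and removed all 6 calls. The cause was not tested, except that a larger BCV by construction widens the error.

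The number of miRNAs called in either direction was, in order of time, 127, 77, 63 and 46. It was 58, 23, 19 and 8 with BCV 0.4, and 310, 257, 261 and 238 when every miRNA with a count was tested. The share of higher calls moved with the scaling, from 35 higher and 28 lower at 24 h to 15 and 70 with library size only, and with totals without miR-486b-5p from 61 and 66 to 36 and 96 at 4 h, from 54 and 23 to 39 and 41 at 8 h, and from 27 and 19 to 20 and 25 at 2 weeks. It was 76 at 4 h with the sum of the 3 control libraries, and 121 at 2 weeks against control 4 h. With 3 SE against 3 control libraries, 0 were called in the quasi-likelihood test, 3 with any count, 4 with DESeq2 and between 0 and 2 with a time left out (2 without 24 h). With time as a block 0 were called. Correlations of deviations were 0.40, 0.22 and 0.04 at 24 h, 4 h and 8 h. The blocked log2 fold change was 0.89 for miR-10b-5p (adjusted p = 0.0707, edgeR) and 0.79 for miR-10a-5p (0.242). With a time left out, miR-10b-5p was 0.83 to 0.91 and miR-10a-5p 0.53 to 1.09. With both arms summed, ratios of miR-10b-5p to miR-10a-5p changed by at most 0.01, as for control 8 h (from 4.40 to 4.39) and control 24 h (from 2.84 to 2.83). Depth limits the 3p strands, each near or below 1 estimated molecule where counted.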
